A study of Mus musculus with 12 samples.

Results

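Neurofilaments are the most abundant cytoskeletal polymers of large myelinated axons. They assemble from the light (Nefl), medium (Nefm) and heavy (Nefh) subunits and from alpha-internexin (Ina), and in motor axons their number sets axon calibre, which in turn sets conduction velocity. Each subunit carries a conserved helical rod through which the chains pair, while the tails of the medium and heavy subunits project sideways and are phosphorylated at repeated lysine-serine-proline motifs. Nefl can form a filament core with any of the others, and Ina is the subunit that appears earliest in developing neurons.

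The 4 subunit genes were selected by mouse symbol, and all 4 of them were found among the 49548 genes counted in each library and passed the filter on low counts. RNA of the lumbar spinal cord was sequenced from 8 MFN2 and 4 WT mice at 30 days of age, with 1 library per mouse and no treatment. MFN2 mice are hemizygous MitoCharc1 animals with the transgene Tg(Eno2-MFN2*R94Q)L51Ugfm on a B6;D2 background, in which a rat Eno2 promoter drives human MFN2 with the R94Q change mainly in neurons, while the mouse Mfn2 copies are kept. WT mice are labelled C57BL/6, while the methods of the study describe littermates, so that a difference in background cannot be told apart from the transgene. Library numbers run from 41 to 47 and from 72 to 76. The first run holds 3 MFN2 libraries, numbered 41 to 43, and all 4 WT libraries, numbered 44 to 47, and the second run holds 5 MFN2 libraries only, so that in the second run the genotype and the run cannot be told apart. The labels do not say what the numbers stand for, and a run here is only a gap in them. The total count of a library was between 19359454 and 26738930 for MFN2 mice and between 19453238 and 23564568 for WT mice. Mouse Mfn2 had a level of 206 ± 12.8 CPM in the 8 MFN2 mice and 213 ± 15.1 CPM in the 4 WT mice (mean ± SD), and the human transgene was not analysed here. CPM is a gene's count scaled to the size of its library after TMM normalization.

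Library 43, of an MFN2 mouse, stands apart from the other 11, and the tests of the subunits below are given with and without it. All 11 forebrain markers were at their highest there, with a summed level of 4776 CPM against 112 to 209 CPM elsewhere, and Camk2a, the most abundant of them, was at 1920 CPM. The 11 caudal Hox genes, expressed in thoracic and lumbar cord and with Hoxb8 the most abundant of them, summed to 56.0 CPM in library 43 and to between 316 and 403 CPM in the others. The 5 motor neuron markers were all at their lowest in library 43, at a sum of 25.2 CPM against 98.5 to 234 CPM. The most caudal genes of the list divided the other libraries as well, which was seen after their values were known. Hoxd10 was at 23.3 to 31.6 CPM in libraries 42, 44, 72, 74 and 75, at 13.9 CPM in library 73, at 6.94 and 7.49 CPM in libraries 47 and 76, and at 1.87, 0.235 and 2.66 CPM in libraries 41, 45 and 46. Hoxd11 was at 12.7 to 16.4 CPM in the first 5 of these and at 0 in libraries 41 and 45. The libraries thus differ in these genes within both genotypes, and the part of cord level in the results was not tested. In these bulk samples, fewer neurons of a type and less RNA per neuron cannot be told apart.

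The 4 transcripts are alike in the rod and differ in the tail. The last 24 coding bases of the rod, a stretch that closes the helix in all intermediate filament proteins, are shown because they are the part that the members share. Capitals mark bases that differ from Nefl, and sequences were read from the GENCODE M21 transcripts.
Nefl: tacagaaaactcttggaaggcgaa
Nefm: tacagGaaactcCtAgaGggGgaa
Nefh: tacagaaaGctcCtggaaggcgaa
Ina: tacagGaaGctcCtggaaggTgaa
After this stretch Nefl has 146 codons, Nefm 442, Nefh 683 and Ina 98. Lysine-serine-proline codon triplets number 51 in Nefh, 4 in Nefm and 0 in Nefl and Ina. The sequence of codons 517 to 536 of Nefh shows 3 of them, in capitals.
Nefh tail: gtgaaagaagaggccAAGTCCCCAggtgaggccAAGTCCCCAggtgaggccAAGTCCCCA
Up to the end of the rod the coding sequences of any pair were between 63.4% and 67.9% identical. Apart from the overlap of Nefl and Nefm on opposite strands given below, the longest exact stretch shared by any pair was 23 bases. This stretch, between Nefm and Nefh, is shorter than the 75-base reads. Within Nefh, 94 of 3920 windows of 75 bases occurred more than once in the same transcript, and whether such reads were counted is not known.

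Nefl (ENSMUSG00000022055) lies on the plus strand of chromosome 14 from 68083863 to 68089095 and Nefm (ENSMUSG00000022054) on the minus strand from 68082590 to 68124846 (GRCm38). The last exon of the longer Nefm transcript runs through Nefl in the opposite direction and covers 1108 of its exonic bases, 32.8% of Nefl and 19.2% of Nefm. The end of that overlap falls in the coding sequence of Nefl at chr14:68084956-68084985, plus strand, where capitals mark the 15 bases that both transcripts hold.
Nefl, overlap edge: AAGCAGCTGCAGGAGctagaggacaagcag
Nefh (ENSMUSG00000020396) lies on chromosome 11 from 4938754 to 4948064, minus strand, and shares no exonic base with another gene. Ina (ENSMUSG00000034336) lies on chromosome 19 from 47014698 to 47025327, plus strand, and shares 456 exonic bases, 14.1%, with Nt5c2 on the opposite strand. The strand setting of the counting is not given in the sources used here, so counts of Nefl, Nefm and Ina may hold reads of the overlapping gene or lack reads that fit both.

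The neurofilament genes were among the most abundant messages of the cord. By mean CPM in WT mice, Nefm ranked 13th, Nefl 15th, Nefh 24th and Ina 380th of 15942 genes tested. Together they took 0.933 ± 0.160% of all counts in WT mice (SD, n = 4) and 0.925 ± 0.343% in MFN2 mice (SD, n = 8), or 1.03 ± 0.180% in the 7 MFN2 mice without library 43. Per kilobase of all annotated exons (RPKM), WT levels were 991 ± 165 for Nefl, 632 ± 122 for Nefm, 565 ± 114 for Nefh and 100 ± 8.13 for Ina (SD, n = 4). The order from Nefl to Ina held in 12 of 12 libraries at these lengths, although in WT mice Nefm and Nefh differed by less than their SD. With the 3334-base Nefm transcript as its length, Nefm was at 1097 ± 212 RPKM in WT mice and above Nefl in all but 1 library, so the order of Nefl and Nefm depends on which Nefm transcript is taken. Nefh stayed below both and Ina lowest under each of the 3 lengths tried. The last of these left out exonic bases shared with another gene, but the counts stayed the same, so it is no separate check of the order.

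Nefl, the subunit on which assembly depends, was at 2548, 3477, 3534 and 3835 CPM in WT libraries 44 to 47. In MFN2 libraries 41, 42 and 43 it was at 2575, 3215 and 734 CPM, and in libraries 72 to 76 at 3333, 3271, 3384, 3506 and 3669 CPM. Without library 43 every MFN2 value fell within the WT range. The spread over the WT mice was a CV of 16.6%, and the mean counting error was 0.376%.

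Nefm, the medium subunit, was at 2720, 3636, 3846 and 4424 CPM in WT mice. MFN2 libraries 41, 42 and 43 were at 2579, 3312 and 625 CPM, and libraries 72 to 76 at 4606, 4281, 4615, 4999 and 4839 CPM. Of the second run, 4 of the 5 libraries were above every WT library. All 5 were so for 9.43% of genes tested, and the share of genes with at least 4 was not computed. Libraries 41 and 43 were below every WT library.

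Nefh, whose tail is the longest and most phosphorylated, was at 1614, 2318, 2408 and 2680 CPM in WT mice. MFN2 libraries 41, 42 and 43 were at 1610, 1984 and 326 CPM, and libraries 72 to 76 at 2468, 2395, 2593, 2839 and 2939 CPM. The genotypes overlapped, with 2 MFN2 libraries above and 2 below the WT range. Of the latter, library 41, at 1610 CPM, was within counting error of the lowest WT library, at 1614 CPM.

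Ina was at 301, 344, 350 and 302 CPM in WT mice. MFN2 libraries 41, 42 and 43 were at 294, 325 and 187 CPM, and libraries 72 to 76 at 303, 286, 287, 287 and 301 CPM. No MFN2 library was above the WT range, and 6 of 8 were below it, 5 of 7 without library 43. Of these, library 76, at 301.40 CPM, was within counting error of the lowest WT library, at 301.47 CPM. The share of all genes with such a count was not computed. Among MFN2 mice without library 43 the CV of Ina was 4.72%, against 10.5% for Nefl, 21.4% for Nefm and 19.5% for Nefh.

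**Figure D1:**
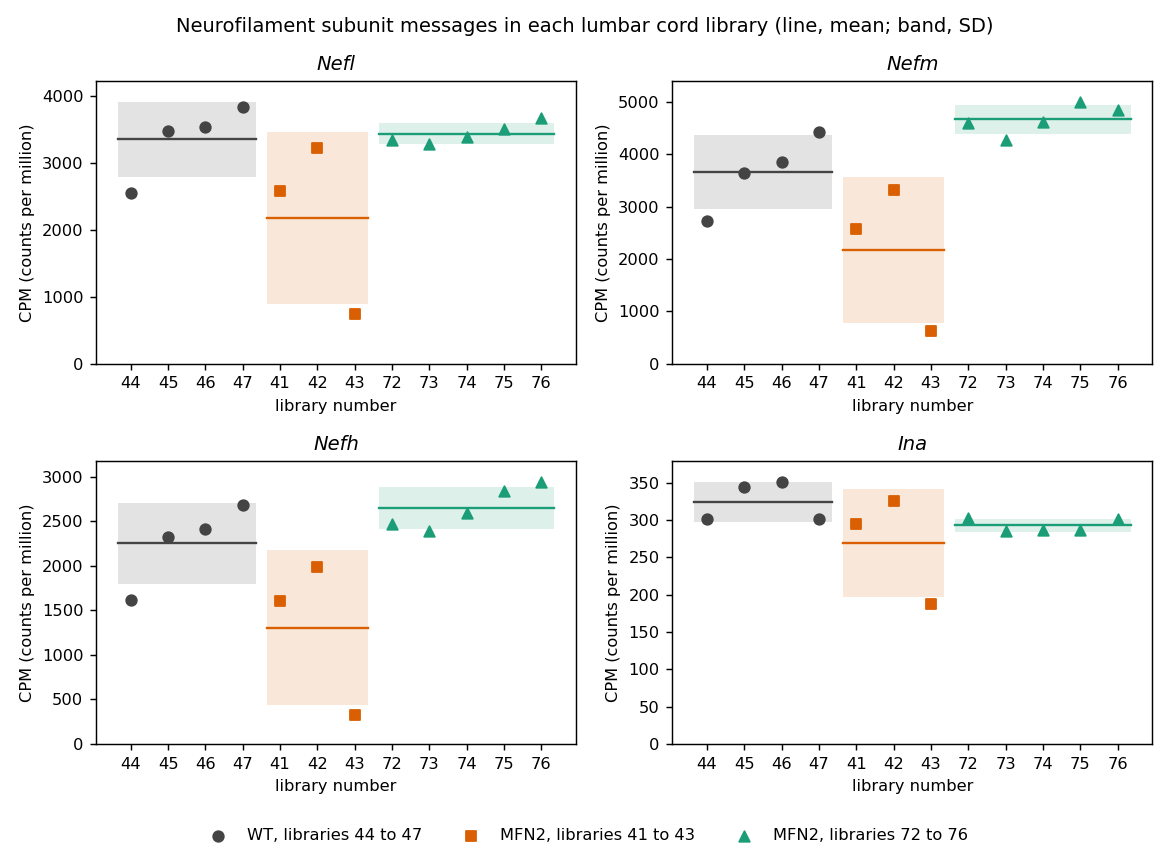
CPM (y axis, linear from 0) of Nefl, Nefm, Nefh and Ina in each of the 12 libraries (x axis, library number), with the mean as a line and the SD as a band for WT libraries 44 to 47, MFN2 libraries 41 to 43 and MFN2 libraries 72 to 76. Library 43 is lowest in all 4 panels, and for Nefm 4 of the 5 libraries of the second run lie above every WT library. All 5 do so for 9.43% of genes tested.

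Whether the transgene changed the neurofilament messages was asked by comparing all 8 MFN2 with all 4 WT mice. None of the 4 subunits passed an FDR of 0.05, as was the case for all 15942 genes tested (0% called by edgeR, with 2386 genes at an unadjusted p under 0.05; DESeq2 called 200 genes and none of the 4). The log2 fold change was -0.18 (SE 0.31, adjusted p = 0.793) for Nefl, 0.03 (SE 0.39, adjusted p = 0.976) for Nefm, -0.07 (SE 0.40, adjusted p = 0.939) for Nefh and -0.19 (SE 0.12, adjusted p = 0.426) for Ina by the quasi-likelihood test of edgeR, adjusted after Benjamini and Hochberg. The 95% confidence intervals were wide, from -0.85 to 0.49 for Nefl and from -0.82 to 0.88 for Nefm. The median over the 4 was -0.12, and over all genes tested 0.0038, and without library 43 it turned to 0.03. Without library 43 the SE of Nefl fell to 0.11 and its log2 fold change was -0.03 (adjusted p = 0.896), while Nefm was at 0.19 (adjusted p = 0.555), Nefh at 0.09 (adjusted p = 0.777) and Ina at -0.12 (adjusted p = 0.235), with 0.12% of genes called. The sign of Nefh thus turned with that library. With the run as a covariate Nefm turned to -0.75, or -0.31 without library 43, and with limma-voom to -0.16.

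The MFN2 mice were then compared with the same 4 WT mice by run of library numbers. In libraries 41 to 43, where both genotypes share a run, 0.00658% of genes were called and the log2 fold change was -0.61 (SE 0.44) for Nefl, -0.74 (SE 0.49) for Nefm, -0.78 (SE 0.53) for Nefh and -0.26 (SE 0.18) for Ina, with adjusted p from 0.639 to 0.653 by edgeR. With libraries 41 and 42 only, these values were -0.20, -0.30, -0.32 and -0.06 (adjusted p of 0.904 or more, with 0.00667% of genes called). In libraries 72 to 76, 23.8% of genes were called, 11.1% higher and 12.7% lower (2350 genes without WT library 45, against 3746), and Nefm was 1.27-fold higher (log2 fold change 0.35, SE 0.11, adjusted p = 0.0472). That call was lost when WT library 45 (adjusted p = 0.106) or 46 (adjusted p = 0.0839), or MFN2 library 72, 74, 75 or 76, was left out, with an adjusted p of up to 0.0892 for those 4. Nefl was at 0.03 (SE 0.10, adjusted p = 0.839), Nefh at 0.23 (SE 0.13, adjusted p = 0.221) and Ina at -0.15 (SE 0.06, adjusted p = 0.0682) by the same test. Leaving out WT library 44 gave Ina an adjusted p of 0.0269, and leaving out WT library 47 gave 0.0453.

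Within the MFN2 genotype, the 5 libraries of the second run were compared with the 3 of the first. Nefl, Nefm and Nefh were higher in every library of the second run than in every library of the first, a pattern shown by 9.62% of genes tested, and by 17.9% without library 43, while Ina overlapped. The log2 fold change was 0.65 (SE 0.38, adjusted p = 0.321) for Nefl, 1.09 (SE 0.43, adjusted p = 0.167) for Nefm, 1.01 (SE 0.46, adjusted p = 0.220) for Nefh and 0.11 (SE 0.15, adjusted p = 0.690) for Ina by edgeR, with 2.19% of genes called. Without library 43, 15.3% of genes were called, and Nefm was 1.57-fold higher in the second run (log2 fold change 0.66, SE 0.10, adjusted p = 0.00265) and Nefh 1.46-fold higher (log2 fold change 0.55, SE 0.10, adjusted p = 0.00719). Nefl was at 0.24 (SE 0.09, adjusted p = 0.0870) and Ina at -0.09 (SE 0.06, adjusted p = 0.337), and DESeq2 gave Nefl an adjusted p of 0.0468. The Nefh call was lost without library 41 (log2 fold change 0.41, adjusted p = 0.0750), which leaves library 42 alone in the first run, and Nefl was called without library 42 (log2 fold change 0.42, adjusted p = 0.0188). With 1 library left in an arm, that library is assumed to vary like the others.

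**Figure D2:**
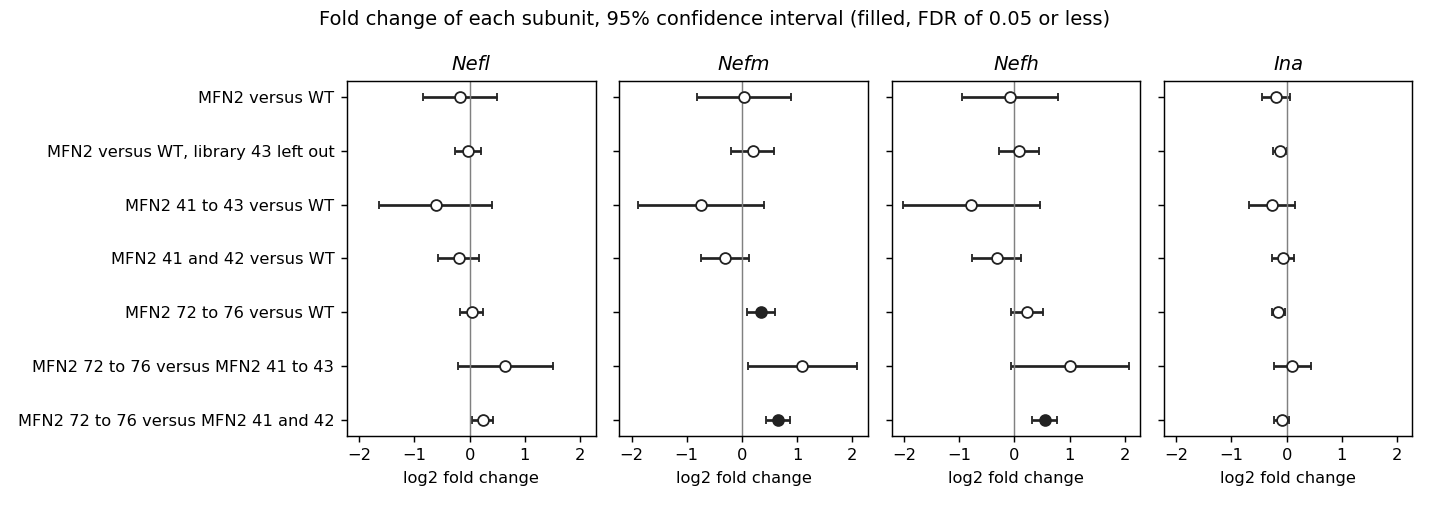
Log2 fold change (x axis) with its 95% confidence interval for each subunit in 7 comparisons (y axis), from edgeR, with filled points for an FDR of 0.05 or less. Only Nefm in libraries 72 to 76 against WT, and Nefm and Nefh in libraries 72 to 76 against 41 and 42, are filled.

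The proportions of the subunits need no scaling between libraries. Per Nefl count, Nefm counts numbered 1.07, 1.05, 1.09 and 1.15 in WT libraries 44 to 47 and 1.00, 1.03 and 0.851 in MFN2 libraries 41 to 43. In libraries 72 to 76 they numbered 1.38, 1.31, 1.36, 1.43 and 1.32. All 5 libraries of the second run were above all 7 of the first, and the 3 MFN2 libraries of the first run were below all WT libraries.

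Per Nefl count, Nefh counts numbered 0.633, 0.667, 0.681 and 0.699 in WT mice, 0.6254, 0.617 and 0.444 in MFN2 libraries 41 to 43, and 0.740, 0.732, 0.766, 0.810 and 0.801 in libraries 72 to 76. The order of the groups was the same as for Nefm, with no overlap between them, although library 41, at 0.6254, lay close to WT library 44, at 0.633. The share of all gene pairs whose ratios separate these groups was not computed, here or for the ratios to Ina below. Of single genes, 9.43% lay wholly above and 10.2% wholly below WT mice in libraries 72 to 76. Nefh counts per Nefm count ran from 0.593 to 0.638 in WT mice, from 0.522 to 0.624 in libraries 41 to 43 and from 0.536 to 0.607 in libraries 72 to 76, so these groups overlapped. Between libraries 72 to 76 and WT the log2 ratio of Nefm to Nefh was higher by 0.12 (exact permutation p = 0.0317, adjusted p = 0.0381).

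Between all MFN2 and all WT mice, none of the 6 ratios passed the test. The smallest p was 0.0586 for Nefm to Nefh, at a log2 difference of 0.11 (two-sided exact permutation over 495 splits of 8 and 4, adjusted p = 0.352 over the 6 ratios). Leaving out MFN2 library 41, 42 or 76 or WT library 44 gave this ratio an unadjusted exact permutation p of 0.0242, 0.0485, 0.0394 and 0.0424, and leaving out WT library 45 gave 0.152. Without library 43 the smallest p was 0.0788 for the same ratio, at a log2 difference of 0.09 (exact permutation, adjusted p = 0.255). In libraries 41 to 43 against WT, the log2 ratio of Nefl to Nefm was 0.18 higher and that of Nefl to Nefh 0.27 higher, each at the smallest p that 35 splits can give (exact permutation p = 0.0286, adjusted p = 0.0857). With libraries 41 and 42 these differences were 0.10 and 0.11 and the groups still did not overlap, but 15 splits cannot give a p below 0.0667 (exact permutation p = 0.133). In libraries 72 to 76 the log2 ratio of Nefl to Nefm was lower than in WT mice by 0.32 and that of Nefl to Nefh by 0.20 (exact permutation over 126 splits, p = 0.00794, the smallest possible, adjusted p = 0.0159 for each). Both ratios thus lay above the WT values in the MFN2 mice of the first run and below them in those of the second. Within MFN2 mice the log2 ratio of Nefl to Nefm differed by 0.50 and that of Nefl to Nefh by 0.47 between the runs (exact permutation over 56 splits, p = 0.0179, adjusted p = 0.0214), and without library 43 by 0.42 and 0.31 (exact permutation over 21 splits, p = 0.0476, the smallest possible, adjusted p = 0.0571). Reads of the antisense overlap between Nefl and Nefm enter the ratio of these genes, and their part in it was not tested.

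Ina was then set against the triplet. Nefl counts per Ina count were 8.45 to 12.7 in WT mice, 8.76, 9.89 and 3.92 in libraries 41, 42 and 43, and 10.99 to 12.2 in libraries 72 to 76. Nefm counts per Ina count were 9.02 to 14.7 in WT mice and 14.98 to 17.4 in libraries 72 to 76, without overlap, a 1.43-fold difference (exact permutation p = 0.00794, adjusted p = 0.0159). Nefh counts per Ina count differed 1.32-fold between these groups, with overlap (exact permutation p = 0.0317, adjusted p = 0.0381). In libraries 41 to 43 the ratios of Nefm and Nefh to Ina were 0.60-fold and 0.57-fold of WT (exact permutation p = 0.0571 and 0.114). With libraries 41 and 42 only they were 0.85-fold and 0.84-fold. Within MFN2 mice they were 2.38-fold and 2.32-fold higher in the second run (exact permutation p = 0.0179, adjusted p = 0.0214). Without library 43 they were 1.68-fold and 1.56-fold higher (exact permutation p = 0.0476, adjusted p = 0.0571). In library 43 the share of Ina among the 4 messages was 9.998%, against 2.68% to 4.20% in WT mice, Ina being less low there than the triplet.

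**Figure D3:**
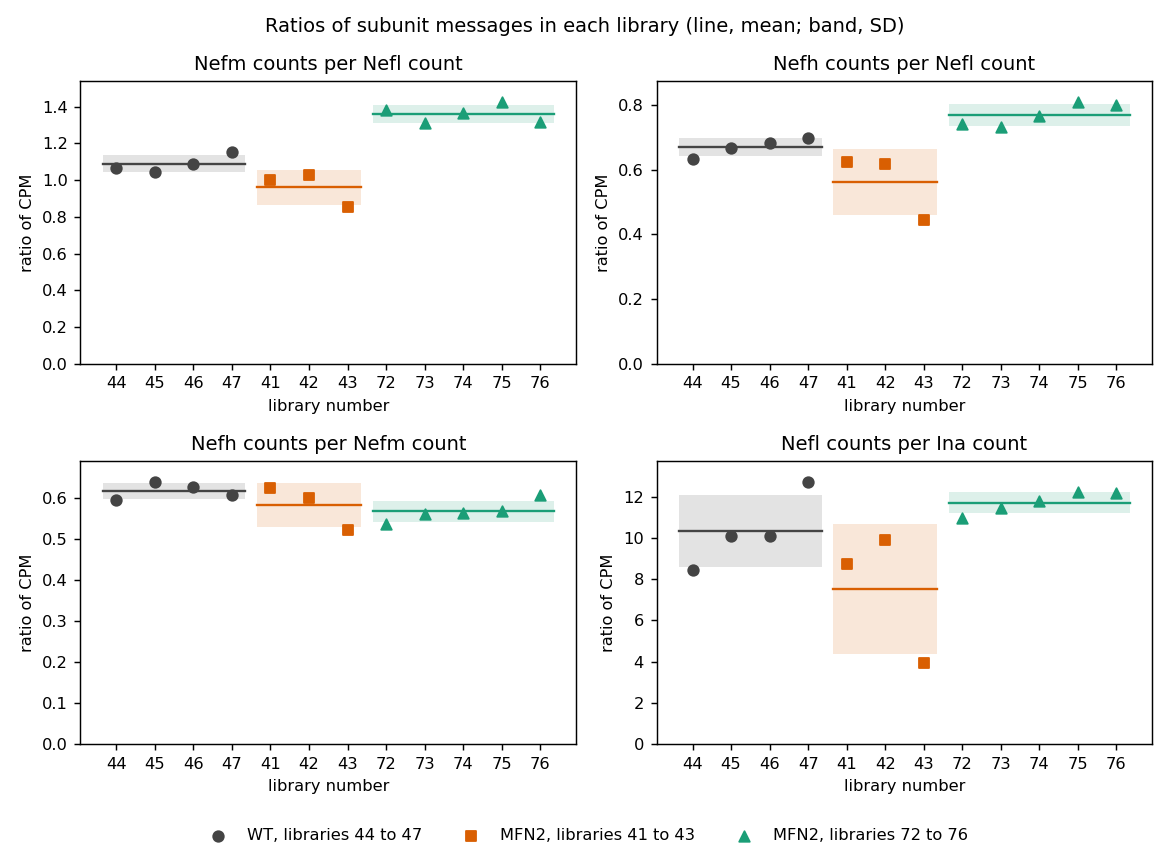
Ratios of counts (y axis, linear from 0) in each library (x axis, library number), with the mean as a line and the SD as a band for each group. Nefm counts and Nefh counts per Nefl count are highest in libraries 72 to 76 and lowest in MFN2 libraries 41 to 43, with no overlap between the 3 groups. Nefh counts per Nefm count overlap. Nefl counts per Ina count overlap between WT and each MFN2 group, but not between the MFN2 groups.

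Across mice, the triplet varied together. Over the 7 libraries numbered 41 to 47, Pearson's r of log2 CPM was 0.999 for Nefm and Nefh (exact permutation p = 0.000198, Spearman's rho 1.00, p = 0.000397) and 0.999 for Nefl and Nefm (exact permutation p = 0.000397, rho 0.96, p = 0.00278), and without libraries 43 and 47 or 43 and 44, the farthest from the median, r was 0.989 and 0.990. Without library 43 the 6 remaining libraries still gave r of 0.991 for Nefm and Nefh (exact permutation p = 0.00139), 0.989 for Nefl and Nefh (exact permutation p = 0.00278) and 0.984 for Nefl and Nefm (exact permutation p = 0.00278). No correlation was computed within the 5 libraries of the second run alone.

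Over all 12 libraries r was 0.995 for Nefm and Nefh (permutation p = 2e-05, rho 0.97, permutation p = 1e-05, the smallest that the permutations can give), 0.992 for Nefl and Nefh and 0.979 for Nefl and Nefm. Over the 11 libraries without 43 these were 0.973, 0.928 and 0.853 (permutation p adjusted over the 6 pairs of 0.00012, 0.00141 and 0.00572). The last of them pools runs that differ in the ratio of Nefm to Nefl, and it fell to 0.387 when libraries 41 and 44, the farthest from the median, were left out too. The pair of Nefm and Nefh kept r of 0.910 in that case, but it too pools runs, and within MFN2 mice both genes were higher in the second. Among all 15942 genes tested, Nefh was the gene with the highest r to Nefm and Nefm the highest to Nefh, with and without library 43. Without library 43 Nefm ranked 47th by r to Nefl and Nefl 144th by r to Nefm, and Ina ranked 4834th or lower by r to each of the triplet.

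Ina followed the triplet less closely once library 43 was left out. Its r over 12 libraries was 0.891 with Nefl (permutation p = 0.0260, adjusted p = 0.0390), 0.797 with Nefm (permutation p = 0.0632) and 0.840 with Nefh (permutation p = 0.05), but without library 43 it was 0.201, -0.232 and -0.088 (permutation p of 0.503 or more). Within libraries 41 to 47 without library 43 it was 0.563, 0.473 and 0.527 (exact permutation p of 0.244 or more, n = 6). These values rest on few libraries: without libraries 43 and 47, r of Ina was 0.998 with Nefm and 0.993 with Nefh, and without libraries 41, 43 and 44 it was -0.519 and -0.333.

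**Figure D4:**
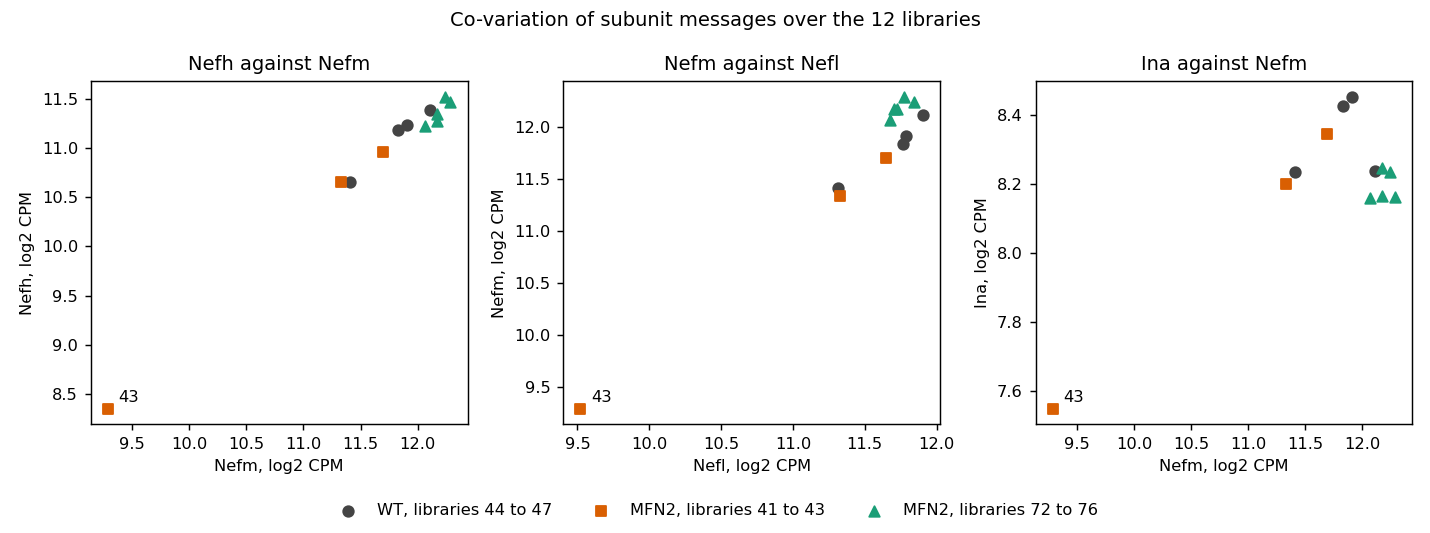
Log2 CPM of Nefh against Nefm, Nefm against Nefl and Ina against Nefm over the 12 libraries, 1 point per mouse. Nefh follows Nefm in all libraries, the libraries 72 to 76 lie above the first run in Nefm at a given Nefl, and Ina is far below the other libraries only in library 43.

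The genes whose log2 CPM was most like that of the 4 subunits, by mean Pearson r over the 12 libraries, were Cast (mean r 0.962), Epb41l3 (0.960), Sv2c (0.959), Patj (0.956) and Akap12 (0.955). Cast encodes calpastatin, the inhibitor of the calpains that cleave neurofilaments, and Sv2c a synaptic vesicle protein. All of them were at their lowest in library 43, with Cast at 10.9 CPM there and at 26.6 to 34.02 CPM elsewhere. Over the 11 libraries without it the mean r was highest for Hspd1 (0.734), Eif2s3x (0.725), Atp8a2 (0.708), Cast (0.699) and Wnk4 (0.697). These values describe points that share a library and a run.

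Peripherin (Prph), an intermediate filament of motor and sensory neurons that assembles with the triplet, was at 68.8, 86.8, 78.7 and 136 CPM in WT mice. It was at 55.0, 100.1 and 10.3 CPM in MFN2 libraries 41 to 43 and at 92.9, 72.7, 104, 103 and 86.6 CPM in libraries 72 to 76. The genotypes overlapped (log2 fold change -0.24, SE 0.43, adjusted p = 0.794 by edgeR, and -0.07, SE 0.21, adjusted p = 0.864 without library 43). Chat, the acetylcholine-synthesizing enzyme of motor neurons, was at 16.4, 21.5, 21.4 and 35.3 CPM in WT mice, at 16.9, 17.5 and 5.21 CPM in libraries 41 to 43 and at 23.9, 22.3, 27.6, 30.3 and 27.8 CPM in libraries 72 to 76. Like the triplet, Chat was higher in every MFN2 library of the second run than of the first (log2 fold change 0.98, adjusted p = 0.130, and 0.61, adjusted p = 0.00758, without library 43, by edgeR). Of the other motor neuron markers, Slc5a7 had the same order, while Slc18a3, Isl1 and Mnx1 did not. Slc18a3 was at 39.2 CPM in library 42 and at 30.5 to 39.4 CPM in libraries 72 to 76.

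Chat followed Nefh over the 11 libraries without library 43 with r of 0.890 (permutation p = 0.00012, adjusted p = 0.00096 over 8 relations, and rho 0.93, permutation p = 7e-05, adjusted p = 0.00056), and r was 0.865 without libraries 41 and 44. For Nefm r was 0.870 and for Nefl 0.812, while for Ina it was -0.306 (permutation p = 0.359). Within libraries 41 to 47 without library 43, r between Nefh and Chat was 0.854 (exact permutation p = 0.00556, adjusted p = 0.0222, n = 6). Prph had r of 0.771 with Nefl, 0.675 with Nefm and 0.684 with Nefh over the same 11 libraries (permutation p adjusted over the 8 relations of 0.00804, 0.0288 and 0.0288), which fell to 0.463, 0.194 and 0.216 without libraries 41 and 44. The values over 11 libraries pool the 2 runs, and within MFN2 mice Chat and the triplet were higher in the second. The part of the run in these r values and that of motor neuron number in these levels were not tested.

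**Figure D5:**
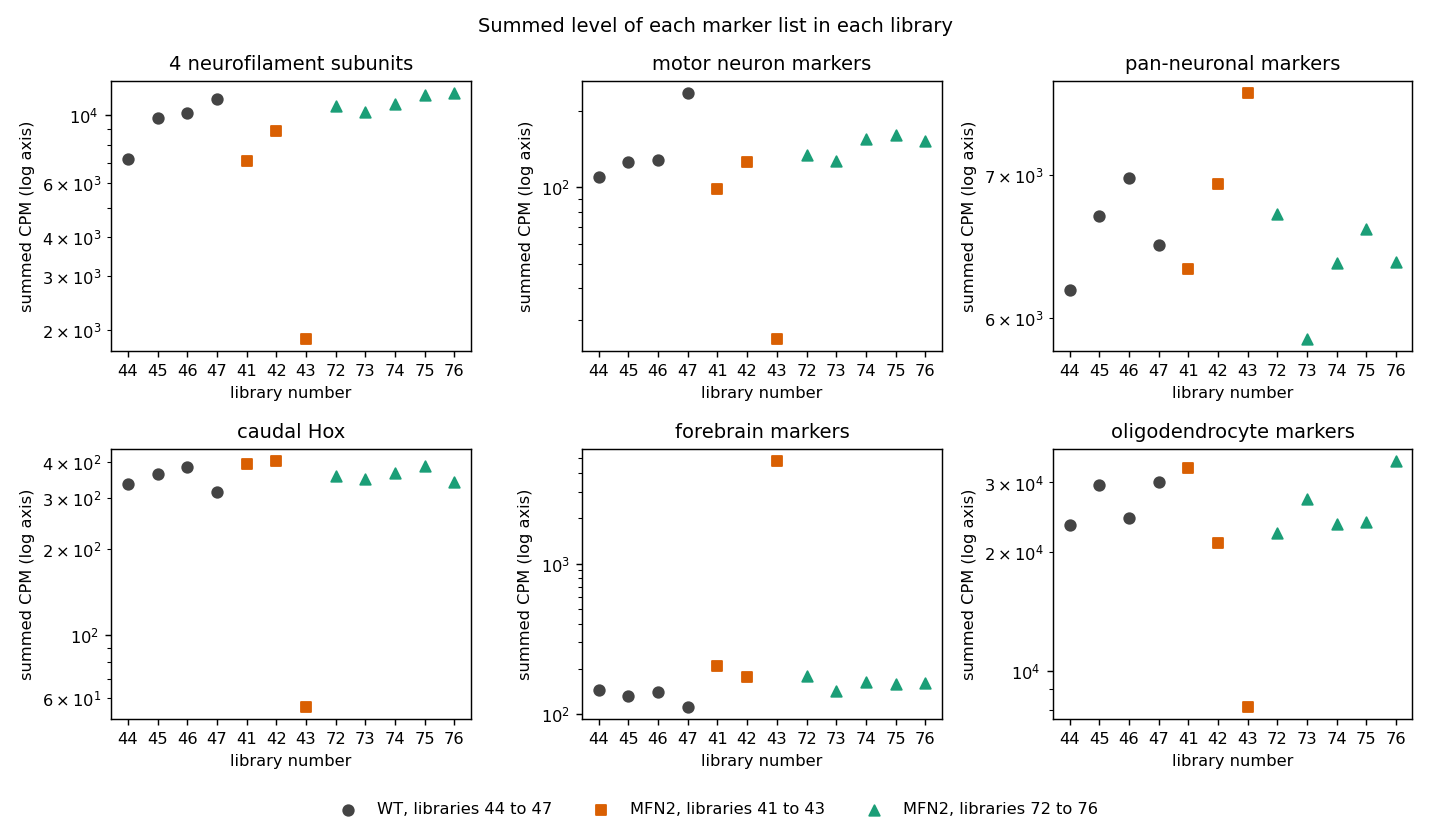
Summed CPM (y axis, log scale) of the 4 subunits and of 5 marker lists in each library (x axis, library number). Library 43 is lowest for subunits, motor neuron markers, caudal Hox and oligodendrocyte markers, and highest for forebrain and pan-neuronal markers.

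Pan-neuronal markers were mixed in library 43. The 12 of them summed to 7647 CPM there, the highest of all libraries, against 5866 to 6982 CPM elsewhere, with 5 of them at their highest and 5, Snap25, Eno2, Elavl3, Stmn3 and Tubb3, at their lowest. Syt1 alone was at 1159 CPM there against 111 to 234 CPM elsewhere, these genes being named after their values were seen. The oligodendrocyte markers, all 6 of them at their lowest in library 43, summed to 8133 CPM against 21104 to 33950 CPM. The 4 sensory ganglion markers did not exceed a sum of 1.13 CPM in any library, and none of them passed the filter. Prx, a gene of myelinating Schwann cells named here after its values were seen, was at 35.5 CPM in library 43 and 50.4 CPM in library 73, against at most 1.22 CPM elsewhere. Skeletal muscle markers summed to 94.97 CPM in MFN2 library 73 and 72.9 CPM in WT library 47, against 1.27 to 24.2 CPM elsewhere, and endothelial markers to between 73.5 and 115 CPM in all libraries. The part of these differences in the neurofilament levels was not tested.

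Other genes of neurofilament biology were read from lists of partners. Between all MFN2 and all WT mice, 0 of the 46 partner and other filament genes passed the FDR of 0.05, which 0% of all genes did. Without library 43 the count was 0 again, where 0.12% of all genes passed. In libraries 72 to 76 against WT, where 12.7% of all genes were called lower and 11.1% higher, 14 of the 46 were called lower and 1 higher. None of them was called in libraries 41 to 43 against WT, where 0.00658% of all genes were, or in libraries 72 to 76 against 41 to 43, where 2.19% were. These comparisons share libraries, and the counts of 0 stand beside backgrounds near 0.

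Of the other intermediate filaments, 2 of 10 were called lower in libraries 72 to 76 against WT. This is near the share over all genes there, 12.7%. Gfap, the astrocyte filament, was at 978 ± 341 CPM (SD, n = 5) against 2066 ± 508 CPM in WT mice (SD, n = 4; log2 fold change -1.08, SE 0.26, adjusted p = 0.0213 by edgeR). It was also variable within the first run, at 3002, 1223 and 276 CPM in MFN2 libraries 41 to 43. Synm, a large filament linker, had a log2 fold change of -0.48 (SE 0.12, adjusted p = 0.0196). Astrocyte markers moved with them, 3 of 5 being lower with Gfap among them, as did microglia markers, 5 of 5 being lower, and their part was not tested.

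Of the 15 kinases, phosphatase and isomerase that act on neurofilament tails, 6 were called lower in libraries 72 to 76 against WT and none higher. Over all genes 12.7% were called lower and 11.1% higher there, and genotype and run cannot be told apart in that comparison. The tail kinase Cdk5 was at a log2 fold change of -0.23 (SE 0.06, adjusted p = 0.0206) and its activator Cdk5r2 at -0.34 (SE 0.05, adjusted p = 0.000859). Cdk5r2 was at 72.2 ± 2.05 CPM in WT mice (SD, n = 4), 56.9 ± 3.23 CPM in libraries 72 to 76 (SD, n = 5) and 78.9, 81.3 and 230 CPM in libraries 41 to 43. Mapk3 was at -0.39 (adjusted p = 0.00772), Mapk9 was at -0.13 (adjusted p = 0.0378) and Prkaca at -0.24 (adjusted p = 0.0171).

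In libraries 72 to 76 against WT, 12.7% of all genes were called lower. Of the 7 motors that carry neurofilaments along the axon, only Kif5b, a kinesin heavy chain, was called lower (log2 fold change -0.35, SE 0.09, adjusted p = 0.0194). This count is near the share over all genes. Of 5 cross-linkers and microtubule partners, the microtubule-binding protein tau (Mapt, -0.34, SE 0.06, adjusted p = 0.00234) and plectin (Plec, -0.25, SE 0.07, adjusted p = 0.0267) were lower. Of 6 genes of turnover, 3 were lower, the ubiquitin ligase Stub1 at -0.27, the protease Capn1 at -0.32 and the chaperone Hspb1 at -0.51.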

How the data were processed

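The authors aligned paired-end reads of 75 bases from a NextSeq 500 with STAR to GRCm38.p6 (per the labels) and deposited raw counts per Ensembl gene, 1 table per library. Which tool counted the reads, and with which strand setting, is not given in the sources used here. The labels describe an mRNA library. The paper names a stranded total RNA kit and also mRNA and 3′-mRNA sequencing, so that the levels per length may carry a bias of position. No column was left unassigned (0). Symbols, lengths and transcript sequences came from GENCODE M21.

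Genes above 1 CPM in at least 3 libraries of a comparison were tested in R 4.3.3 with edgeR 4.0.16 (TMM scaling, robust quasi-likelihood test, FDR of 0.05 by Benjamini-Hochberg over all tested genes). SE was taken as the absolute log2 fold change over the square root of F. Co-variation used log2 CPM with a prior count of 2. Ratios were compared by two-sided exact permutation over libraries. Correlations over fewer than 10 libraries were enumerated exactly and others used 100000 resamples in scipy 1.17.1. Alternatives were limma-voom (limma 3.58.1), DESeq2 1.42.0, other scalings and filters, and each library left out. The edgeR fit was tested on simulated counts with 200 changed genes at a dispersion of 0.02, which was not set from the subunits. Between MFN2 and WT, 99.0% of changed genes were recovered at a log2 change of 1 and 39.8% at 0.5. Between the runs within MFN2, 26.9% were recovered at 0.5.

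Members and gene lists were chosen with earlier results of these data known. The text names the 4 subunits, Prph and Chat, list genes called in a comparison, and the 5 genes with the highest mean Pearson r to the subunits over 12 and over 11 libraries. The comparisons of libraries 72 to 76 with WT under alternatives, those with libraries 41 and 42, the lengths per transcript and the relations to Prph and Chat without library 43 were chosen after seeing the data. Each mouse gave 1 library. Total counts of at least 19359454 per library kept the counting error of each subunit under the spread between libraries. The human transgene was not analysed here, and a few genes of the lists are counted but not reported here by name.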

Additional observations from a re-analysis of the deposited data

Results flagged for a closer look

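Library 43 was far from the other 7 MFN2 libraries in 10 of the 12 groups of MFN2 values examined, where chance flags about 1 group in 20, and none of the 12 groups of WT values held such a library. The gap between library 43 and its nearest neighbour, as a share of the whole MFN2 range, was 0.780 for Nefl, 0.682 for Nefm, 0.726 for Nefh, 0.767 for Ina, 0.724 for Prph and 0.668 for Chat, library 43 being the lowest in each. For the log2 ratios the gap was 0.547 for Nefl to Nefh, where library 43 was highest, and 0.707 for Nefl to Ina, 0.584 for Nefm to Ina and 0.659 for Nefh to Ina, where it was lowest. These values share 1 library and are not independent of each other. Its forebrain markers at 4776 CPM and caudal Hox genes at 56.0 CPM stand beside them, and their part was not tested.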

How the results depend on the processing

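Of 427 values recomputed under alternatives, 349 kept their direction and side of the threshold, 35 turned, 24 passed a threshold not passed before or rose past 1.5 times the count, 17 lost it and 2 moved by more than the spread. Between MFN2 and WT mice the number of genes called was 0, against 200 with DESeq2, 1 with libraries 41 to 43, 1 with libraries 41 and 42 and 3746 with libraries 72 to 76. With libraries 72 to 76 the log2 fold change was 0.034 for Nefl, 0.35 for Nefm and 0.23 for Nefh. Nefm was at -0.16 with limma-voom, -0.74 with libraries 41 to 43, -0.30 with libraries 41 and 42, -0.75 with the run as a covariate and -0.31 with that covariate and without library 43. The log2 ratio differences with libraries 41 to 43 were 0.18 for Nefl to Nefm, 0.27 for Nefl to Nefh and -0.74 for Nefm to Ina. With libraries 72 to 76 they were -0.32 for Nefl to Nefm, -0.20 for Nefl to Nefh, 0.20 for Nefl to Ina, 0.12 for Nefm to Nefh, 0.52 for Nefm to Ina and 0.40 for Nefh to Ina. DESeq2 called 1795 genes between libraries 72 to 76 and 41 to 43, and gave Nefl 0.24 between libraries 72 to 76 and 41 and 42. The median pairwise r was 0.53 without library 43. The cause of these changes was not tested.

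Leaving out 1 library at a time, MFN2 against WT gave 0 to 19 genes and log2 fold changes of -0.29 to -0.03 for Nefl, -0.089 to 0.19 for Nefm, -0.20 to 0.093 for Nefh and -0.23 to -0.12 for Ina. Its log2 ratio differences were -0.20 to -0.09 for Nefl to Nefm, -0.11 to 0.012 for Nefl to Nefh, -0.18 to 0.10 for Nefl to Ina, 0.089 to 0.13 for Nefm to Nefh, -0.055 to 0.30 for Nefm to Ina and -0.18 to 0.21 for Nefh to Ina, and the median r was 0.53 to 0.94. Libraries 72 to 76 against 41 to 43 gave 31 to 2375 genes, 0.24 to 1.04 for Nefl, 0.66 to 1.53 for Nefm, 0.55 to 1.44 for Nefh and -0.089 to 0.26 for Ina, the highest count being that without library 43. Libraries 72 to 76 against WT gave 2350 to 4517 genes, -0.077 to 0.11 for Nefl, 0.23 to 0.46 for Nefm, 0.10 to 0.32 for Nefh and -0.18 to -0.11 for Ina. Libraries 72 to 76 against 41 and 42 gave 691 to 2611 genes, 0.086 to 0.42 for Nefl, 0.49 to 0.86 for Nefm, 0.41 to 0.72 for Nefh and -0.16 to -0.0012 for Ina.

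No paired analysis was possible because the replicate numbers are library numbers and no number is shared between groups. Counting error was at most 1.27% of the level for the 4 subunits on average in any group, under the spread between libraries.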
